A study of Mus musculus with 8 samples.

Results

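Nonsense-mediated mRNA decay (NMD) is the pathway that removes transcripts on which a ribosome stops at a premature stop codon or far from the end of the message. The 9 genes described here are its core factors as named for this work, Upf1, Upf2, Upf3a, Upf3b, Smg1, Smg5, Smg6, Smg8 and Smg9. They were taken by symbol from a table of 17121 genes, in which all 9 were present. All 9 also passed the filter on low values that left 17066 genes to be tested. RNA-seq was made from mouse testis in 4 libraries of the genotype N6amt1-SKO (SKO) and 4 libraries of the genotype CTL. The series asks how N6AMT1, a methyltransferase of the release factor eRF1, acts in the making of sperm. The labels give neither the meaning of SKO, nor the strain, age or driver of a deletion, nor whether CTL mice carried an allele, nor whether each library was a separate mouse. P-values therefore measure the spread between libraries, which may be technical.

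The pathway starts at a terminating ribosome, where the release factors meet the RNA helicase UPF1. UPF2 links UPF1 to UPF3B or its paralogue UPF3A, which contact the exon junction complex left on a spliced message. The kinase SMG1, held in check by SMG8 and SMG9, phosphorylates UPF1, and phosphorylated UPF1 is bound by the endonuclease SMG6 or by SMG5, which helps to bring in deadenylation and decapping. In mammalian cells several of these factors are encoded by messages that are themselves targets of the pathway. In mouse male germ cells UPF1 has been located in the chromatoid body, a granule of RNA and protein in round spermatids, and loss of UPF2 or SMG6 in germ cells stops the production of sperm.

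The promoter windows of 4 members are shown because the results turn on these genes: Smg5 was the single member called, Smg6 went along with it from library to library, and Upf3b and Upf3a are the paralogues whose ratio differed. Each window runs from 250 bases before to 50 bases after a start annotated for the gene, 5′ to 3′ on its strand. The windows come from RefSeq on GRCm38.p6. This start need not be the outermost end of the gene. RefSeq places the upstream end of Upf3a at 13785055, before its window, and that of Upf3b at 37110471, inside its window. Capitals mark matches on either strand to 6 searched motifs, namely the ETS core CCGGAAG, the CCAAT box CCAAT, the cyclic AMP response element TGACGTCA, the NRF1 core GCGCATGC, the GC box GGGCGG and the YY1 core AAGATGGCG. Smg5 lies at chr3:88336010-88336309 on the plus strand, Smg6 at chr11:74925604-74925903 on the plus strand, Upf3b at chrX:37110273-37110572 on the minus strand and Upf3a at chr8:13785365-13785664 on the plus strand. Of the other members, Upf1 lies on chromosome 8, Upf2 on chromosome 2, Smg1 and Smg9 on chromosome 7 and Smg8 on chromosome 11.
Smg5: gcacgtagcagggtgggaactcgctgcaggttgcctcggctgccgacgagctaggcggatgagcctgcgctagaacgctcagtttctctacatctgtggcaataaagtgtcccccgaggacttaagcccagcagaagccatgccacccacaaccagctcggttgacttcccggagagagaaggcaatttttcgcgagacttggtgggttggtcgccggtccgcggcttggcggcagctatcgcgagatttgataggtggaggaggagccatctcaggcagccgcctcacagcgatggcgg
Smg6: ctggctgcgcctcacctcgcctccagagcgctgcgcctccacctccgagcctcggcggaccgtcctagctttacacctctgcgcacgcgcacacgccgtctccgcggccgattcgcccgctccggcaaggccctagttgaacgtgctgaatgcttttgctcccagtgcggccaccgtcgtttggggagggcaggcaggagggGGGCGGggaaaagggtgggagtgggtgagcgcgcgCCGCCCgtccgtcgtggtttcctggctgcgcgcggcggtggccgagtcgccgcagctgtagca
Upf3b: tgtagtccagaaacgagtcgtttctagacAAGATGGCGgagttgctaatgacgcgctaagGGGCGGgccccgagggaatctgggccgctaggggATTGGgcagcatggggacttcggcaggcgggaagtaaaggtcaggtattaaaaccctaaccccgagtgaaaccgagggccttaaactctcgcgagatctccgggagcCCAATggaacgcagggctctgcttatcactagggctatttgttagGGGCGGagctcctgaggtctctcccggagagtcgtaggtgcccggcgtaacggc
Upf3a: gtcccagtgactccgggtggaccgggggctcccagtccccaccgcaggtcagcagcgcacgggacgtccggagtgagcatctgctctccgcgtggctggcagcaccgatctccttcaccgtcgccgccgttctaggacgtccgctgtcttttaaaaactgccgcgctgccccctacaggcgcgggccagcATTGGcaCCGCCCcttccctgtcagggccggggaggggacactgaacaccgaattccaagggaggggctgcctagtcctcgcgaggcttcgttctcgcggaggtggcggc

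All 9 members had a window in the RefSeq table. GC boxes were found in 7 of the 9, against 35.7% of the 32851 windows of the same length in that table, and CCAAT boxes in 4 of the 9, against 37.4% of all windows. The NRF1 core was found in Upf1 and Smg9 (2.71% of all windows), where the forward and reverse matches overlap. The ETS core was found in Smg8 (8.86%) and the YY1 core in Upf3b (1.4%), and the cyclic AMP response element in 0 of the 9 (1.79%). Counted from the start that sets each window, the CCAAT matches begin at -156 and -49 for Upf3b, and the single CCAAT match at -60 for Upf3a. None of the 6 motifs occurs in the Smg5 window. GC made up 53.3% to 72.3% of the 9 windows, against a median of 52.7% over all windows. These matches describe letters in the windows and say nothing on which factors bind there.

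Before the results, the libraries were set against each other. What the authors deposited are counts of reads, rescaled library by library and then rounded. Undoing this scaling gave about 40.6 to 65.6 M reads (M for mega) for the SKO libraries and 57.4 to 250.4 M for the CTL libraries, of which CTL 1 and CTL 2 were the deepest. CTL 3, CTL 4 and SKO 4 held more 18S ribosomal RNA, at 0.721% to 0.969% of the values against 0.173% to 0.273% in the other 5, and form the high-18S set, and the other 5 the low-18S set. N6amt1 had normalised values of 586, 557, 561 and 625 in SKO 1 to 4 against 475, 433, 629 and 514 in CTL 1 to 4, so the value over the whole gene did not separate the genotypes (log2 fold change 0.19, limma adjusted p = 0.437). Spermatocyte markers were abundant in all libraries, with sums over 13 genes of 611060 to 719220 in SKO libraries against 768520 to 1008200 in CTL libraries, as the label testis would have it. The extraction protocol in the labels names heart ventricles instead. Of the heart muscle markers listed, 6 were tested, and the other 5 had no row in the table used here. The 6 tested summed to 4376 to 6881 in SKO libraries against 2281 to 2898 in CTL libraries.

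Among the 9 factors the clearest difference was that of Smg5, which fell 1.82-fold in SKO testes. Of the 9 members 1 fell, 0 rose and 8 did not pass the test, where 7.93% of all genes tested fell, 11.9% rose and 19.9% changed either way (limma, adjusted p below 0.05 over 17066 genes). The log2 fold change was negative for 8 of the 9, with a median of -0.42. Upf3b, the X-linked member, was the exception, with a log2 fold change of 0.43. Over all genes the median was 0.04, and 52.5% were positive. The median of the 9 depended on the libraries, at -0.06 in the low-18S set and -0.55 in the high-18S set. It was -0.26 with the 18S set as covariate, -0.09 with library weights and -0.83 without CTL 1 and CTL 2. In 3 of the 9 members, Smg5, Smg6 and Upf3b, the values of the groups did not overlap, where this held for 26.1% of all genes. The share of risen genes depends on the scaling, at 2039 risen and 1354 fallen here, 1601 and 1657 with median-ratio factors, and 4885 and 456 with library totals.

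**Figure D1:**
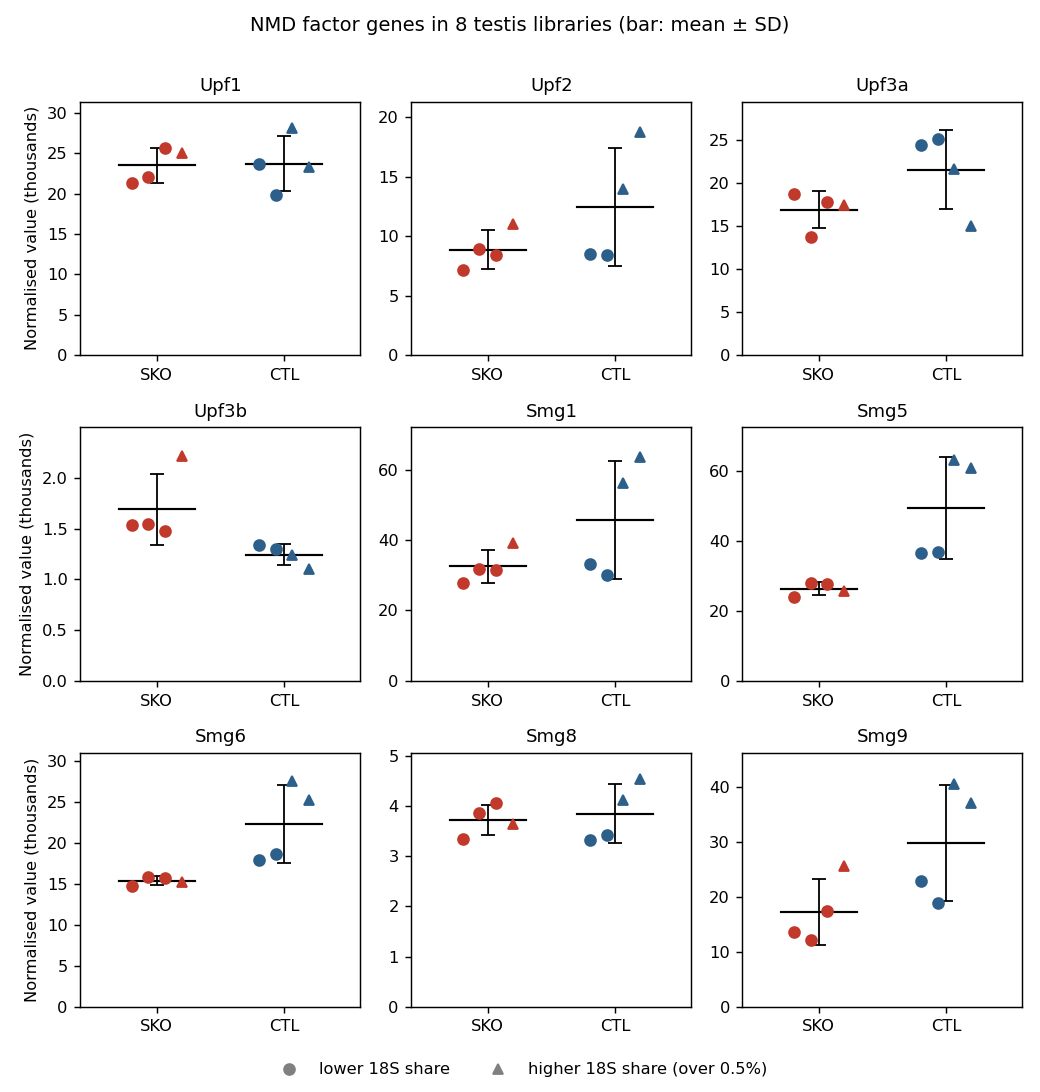
Normalised values (kilo-units) of the 9 NMD factor genes in each SKO and CTL library; points are libraries, triangles are the libraries with over 0.5% 18S, horizontal lines are means and bars are SDs (n = 4 each). Smg5 and Smg6 lie lower and Upf3b higher in all 4 SKO libraries than in any CTL library. Upf2, Smg1, Smg5, Smg6, Smg8 and Smg9 are higher in CTL 3 and CTL 4 than in CTL 1 and CTL 2, and Upf3a and Upf3b are lower.

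Of the effectors that act after UPF1 is phosphorylated, Smg5 fell and Smg6 did not pass the test. Smg5, which helps to recruit decay enzymes, had normalised values of 23986, 27888, 27780.0 and 25571 in SKO 1 to 4 against 36645, 36959, 63092 and 60776 in CTL 1 to 4. All SKO libraries lay below all CTL libraries, and CTL 3 and CTL 4 stood far above CTL 1 and CTL 2. The means were 26306 ± 1879 in SKO and 49368 ± 14541 in CTL (SD, n = 4 each), a log2 fold change of -0.86 (standard error 0.21; limma adjusted p = 0.0226). Within the low-18S set the log2 fold change was -0.48 (3 SKO against 2 CTL, limma adjusted p = 0.0231), and in the high-18S set, which holds 1 SKO library (SKO 4) and 2 CTL libraries and so gives no test with replicates on the SKO side, it was -1.27. The call was lost without CTL 3 (-0.78, adjusted p = 0.0566), SKO 1 (-0.82, adjusted p = 0.062), SKO 2 (-0.89, adjusted p = 0.0555) or SKO 3 (-0.89, adjusted p = 0.0684) in limma. Without SKO 3 limma called 0 of all genes, with 4791 at an unadjusted p below 0.05.

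Smg6, the endonuclease that cuts the target near the stop codon, had 14741, 15834, 15762 and 15290.1 in SKO 1 to 4 against 17909, 18657, 27529 and 25229 in CTL 1 to 4. All 4 SKO libraries lay within a narrow band below the lowest CTL library. The means were 15407 ± 505 in SKO and 22331 ± 4777 in CTL (SD, n = 4 each), and the log2 fold change of -0.51 (standard error 0.16) just missed the threshold (limma adjusted p = 0.0528). It passed in 9 of 22 alternatives run, among them the median-ratio scaling (-0.58, adjusted p = 0.0395), a filter at a value of 200 (adjusted p = 0.0466) and the removal of a length and GC trend (-0.46, adjusted p = 0.0252). The log2 fold change was -0.24 in the low-18S set, against -0.78 in the high-18S set. 1.5% of the exon bases of Smg6 overlap Srr on the opposite strand, and the kit does not mark strand.

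**Figure D2:**
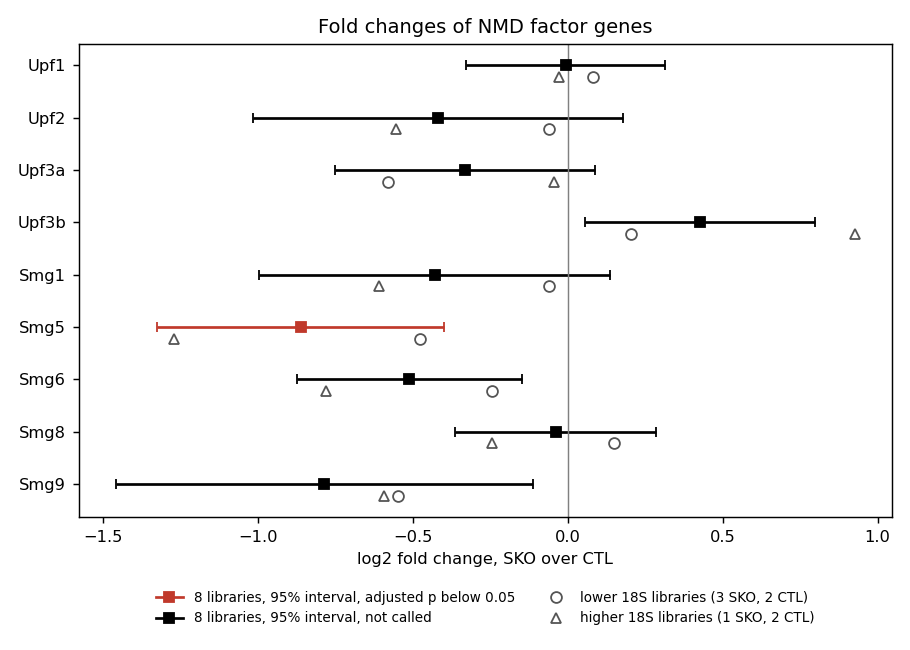
Log2 fold change (SKO over CTL) of the 9 NMD factor genes, with squares for the fit to all 8 libraries, bars for its 95% confidence interval, and open symbols for fits within the low-18S set (circles) and the high-18S set (triangles). Smg5 (-0.86) alone passed the test, Upf3b (0.43) alone lay above 0 in the fit to 8 libraries, and the open symbols of Upf2 and Smg1 lie near 0 in the low-18S set.

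None of the 3 genes of the kinase complex passed the test on all 8 libraries, although Smg9 did so in some alternatives. Smg1, a kinase of the PI3K-related family that phosphorylates UPF1, had 27740.0, 31667, 31423 and 39133 in SKO 1 to 4 against 33075, 29983, 56292 and 63648 in CTL 1 to 4. The groups overlapped, since CTL 2 lay below 3 of the SKO libraries. The log2 fold change was -0.43 with a standard error of 0.25 (limma adjusted p = 0.247), but by set -0.06 (low-18S) and -0.61 (high-18S). Smg9 had 13549.8, 12172, 17389.5 and 25599 in SKO 1 to 4 against 22861, 18876, 40500.3 and 37095 in CTL 1 to 4. SKO 4 lay above CTL 1 and CTL 2, so the groups overlapped. The means were 17178 ± 6033 in SKO and 29833 ± 10570.3 in CTL (SD, n = 4 each), and the log2 fold change of -0.79 had a standard error of 0.3 (limma adjusted p = 0.0904). By set the log2 fold changes of Smg9 were -0.55 (low-18S, limma adjusted p = 0.0489) and -0.59 (high-18S, with 1 SKO library). Smg9 passed in 7 of 22 alternatives run, among them the 18S set as covariate (-0.57, limma adjusted p = 0.0165), the removal of CTL 1 and CTL 2 (-1.29, adjusted p = 0.012), of CTL 2 (-1.03, adjusted p = 0.0494) or of SKO 4 (-0.998, adjusted p = 0.0406) and library weights (-0.50, adjusted p = 0.037). Library weights called 10011 of the 17066 genes tested. Smg1 passed in 1 of the 22 alternatives, without CTL 1 and CTL 2 (-0.94, limma adjusted p = 0.00765).

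Smg8, which binds SMG1 together with SMG9, had 3354, 3862, 4057 and 3642 in SKO 1 to 4 against 3319, 3431, 4133 and 4537 in CTL 1 to 4. The groups overlapped, with the CTL libraries spread more widely. The log2 fold change was -0.04 with a 95% confidence interval of -0.36 to 0.28 (limma adjusted p = 0.874), and its sign turned with the scaling. Smg8 thus showed no detectable difference, while its partner Smg9 had a larger and more variable one; the difference between these genes was not tested.

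Upf1, the helicase at the centre of the pathway, had 21361, 21991, 25647 and 24952 in SKO 1 to 4 against 23644, 19853, 28112 and 23233 in CTL 1 to 4. SKO and CTL libraries were mixed in order. The means were 23488 ± 2127 in SKO and 23710.5 ± 3391 in CTL (SD, n = 4 each), with a log2 fold change of -0.01 and a 95% confidence interval of -0.33 to 0.31 (limma adjusted p = 0.979). The interval leaves room for changes of that size in either direction, and the sign turned with the scaling. 1.5% of its exon bases overlap Cers1 on the opposite strand.

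Upf2, the adaptor between UPF1 and UPF3, had 7170, 8913, 8433 and 11022 in SKO 1 to 4 against 8528, 8431, 14003 and 18807 in CTL 1 to 4. CTL 3 and CTL 4 stood above all other libraries, whereas CTL 1 and CTL 2 lay inside the range of the SKO libraries. The log2 fold change was -0.42 with a standard error of 0.27 (limma adjusted p = 0.284). By set it was -0.06 (low-18S) and -0.55 (high-18S). Of the alternatives run, Upf2 passed only in the one without CTL 1 and CTL 2 (-0.94, limma adjusted p = 0.0154). Upf2 and Smg1 varied closely together from library to library (Pearson r = 0.98 over the 8 libraries, a description, since the points share the 18S split and the genotype).

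The paralogues Upf3a and Upf3b went apart. Upf3a, on chromosome 8, had 18657, 13771, 17769 and 17427 in SKO 1 to 4 against 24452, 25101, 21612 and 15015 in CTL 1 to 4. All SKO libraries but SKO 2 lay between CTL 4 and the other CTL libraries. The means were 16906 ± 2153 in SKO and 21545 ± 4609 in CTL (SD, n = 4 each; log2 fold change -0.33, limma adjusted p = 0.228), and without CTL 4 the log2 fold change was -0.53 (adjusted p = 0.0428). It was -0.58 within the low-18S set (limma adjusted p = 0.03) and -0.04 within the higher. Upf3b, on the X chromosome, had 1533, 1546, 1481 and 2217 in SKO 1 to 4 against 1341, 1297, 1237 and 1103 in CTL 1 to 4. The groups did not overlap, and SKO 4 stood apart from the other SKO libraries. The means were 1694 ± 350 in SKO and 1245 ± 104 in CTL (SD, n = 4 each), and the log2 fold change of 0.43 (standard error 0.17) did not pass (limma adjusted p = 0.0942). By set the log2 fold change of Upf3b was 0.20 (low-18S, limma adjusted p = 0.241) and 0.93 (high-18S, with SKO 4 as the 1 SKO library). Without SKO 4 it was 0.29 (limma adjusted p = 0.145). With library totals Upf3b passed (0.72, adjusted p = 0.0147), a scaling under which the median gene stood at 0.33, so that Upf3b lay 0.39 above the median gene. Among the 698 X-linked genes tested 29.7% rose, with a median log2 fold change of 0.50, and the part of this X-linked shift in the value of Upf3b was not tested.

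The ratio of the paralogues does not depend on the scaling between libraries. Upf3b came to 8.22%, 11.2%, 8.33% and 12.7% of Upf3a in SKO 1 to 4, against 5.48%, 5.17%, 5.73% and 7.35% in CTL 1 to 4. Every SKO library had a higher share than every CTL library. The log2 ratio averaged -3.33 ± 0.31 in SKO and -4.08 ± 0.22 in CTL (SD, n = 4 each), a difference of 0.76, or a ratio 1.69-fold higher in SKO (two-sided exact permutation test, p = 0.0286, which is the lowest value this design can give; higher in 4 of 4). Taken by set, the difference came to 0.78 (low-18S) and 0.97 (high-18S). The ratio sets an X-linked gene over a gene on chromosome 8. X-linked genes had a median log2 fold change of 0.50, against 0.04 over all genes. The part of this X-linked shift in the ratio was not tested. These shares are of normalised values that are not divided by transcript length.

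**Figure D3:**
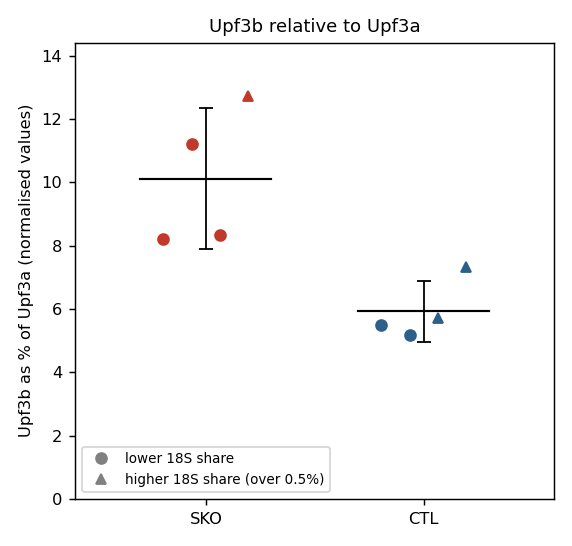
Normalised value of Upf3b as a percentage of that of Upf3a in each SKO and CTL library; points are libraries, triangles are the libraries with over 0.5% 18S, horizontal lines are means and bars are SDs (n = 4 each). The 4 SKO libraries sit between 8.22% and 12.7%, all above the CTL libraries at 5.17% to 7.35%.

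Levels were compared between members per kilobase of the longest annotated transcript. On this scale Smg9 averaged 7662 ± 2690 in SKO and 13310 ± 4710 in CTL (SD, n = 4 each), and Smg5 averaged 5914 ± 423 in SKO and 11100 ± 3270 in CTL. On this scale these 2 had the highest means in both groups, and their ranges overlapped, as did those of Smg5 and Upf1 in SKO. Next came Upf1 (5086 ± 461 in SKO and 5134 ± 734 in CTL) and Upf3a (4572 ± 582 in SKO and 5826 ± 1250 in CTL), whose order differed between the groups and whose ranges overlapped in both. Smg6, Smg1 and Upf2 followed in this order in each group. The order depends on the length used: per kilobase of all exons of a gene, Upf1 came first in SKO (5086, against 4640.0 for Smg9 and 3782 for Smg5), and Upf2 lay above Smg1 in both groups. Smg8 and Upf3b were lowest, with Smg8 at 1159 ± 93.9 in SKO and 1198 ± 180 in CTL and Upf3b at 664 ± 137 in SKO and 488 ± 40.6 in CTL, and their ranges did not overlap in either group. Upf3b was thus the least abundant of the 9 per kilobase in both groups on either scale, with 541 to 3250 reads behind its value in a library, against 1562 or more for each other member.

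Members varied together in part. Over the 8 libraries the log2 values of Smg5 and Smg6 had a Pearson r of 0.99, while Upf3b had an r of -0.77 with Smg5 and -0.73 with Smg6. Upf3a had an r between -0.57 and 0.19 with each of the other 8. These figures describe 8 points that share genotype, the 18S split and a trend with transcript length, and the Spearman correlation of a library's deviations with exon length ran from -0.391 to 0.293 in SKO and from -0.441 to 0.427 in CTL libraries. Among 11487 other genes with a mean of at least 500, the genes most like Upf1 over the 8 libraries were Clns1a (r = 0.93), Rhot2 (0.93) and Zfp746 (0.92). For Upf3a they were Acbd6 (r = 0.98), Taf6 (0.98) and Hagh (0.98), and for Upf3b Alpk1 (r = 0.99), Zmym6 (0.96) and Mmaa (0.95).

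Other factors of the pathway went both ways. For this list and those that follow, the shares over all genes tested on 8 libraries were 11.9% risen and 7.93% fallen. Of 10 further factors 1 rose, 1 fell and 8 did not pass, with a median log2 fold change of -0.08. Nbas, which acts with UPF1 at the endoplasmic reticulum, fell to 13100.3 ± 1178 in SKO, against 25537 ± 9407 in CTL (SD, n = 4 each; limma adjusted p = 0.0327). Stau2, a double-stranded RNA binding protein that can direct UPF1 to messages, rose to 1304 ± 123 in SKO, against 848 ± 82.3 in CTL (SD, n = 4 each; limma adjusted p = 0.0209). Dhx34, a helicase that binds SMG1 and UPF1, had means of 6139.6 in SKO and 10130.2 in CTL and did not pass (limma adjusted p = 0.0676); it was named after its value was seen.

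The exon junction complex and the nuclear cap-binding genes mostly did not pass. Of 15 genes 1 rose, 1 fell and 13 did not pass (median log2 fold change 0.15). Magoh, a core subunit of the junction complex, rose to 2488 ± 203 in SKO, against 1540.2 ± 276 in CTL (SD, n = 4 each; log2 fold change 0.70, limma adjusted p = 0.0196), although its near-identical copy Magohb may share reads with it. Ncbp1, the large cap-binding subunit, fell to 33969 ± 2943 in SKO, against 59271 ± 13806 in CTL (SD, n = 4 each; log2 fold change -0.78, limma adjusted p = 0.0197). Neither gene overlapped between the groups.

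At translation termination, the step that NMD reads, 2 of 7 genes rose, 1 fell and 4 did not pass (median log2 fold change -0.16). Etf1, which encodes the eRF1 protein that N6AMT1 methylates, had means of 15853 ± 2457 in SKO and 16297 ± 3032 in CTL (SD, n = 4 each; limma adjusted p = 0.91). Gspt2, an X-linked gene for the release factor eRF3B, rose to 1643 ± 264 in SKO, against 812 ± 128 in CTL (SD, n = 4 each; log2 fold change 1.01, limma adjusted p = 0.0124). Among X-linked genes 29.7% rose. Gspt2 is close to Gspt1, so reads may be split between them, which was not tested. Gspt1 had a log2 fold change of -0.47 and did not pass (adjusted p = 0.094). Pabpc1, the cytoplasmic poly(A) binding protein, fell 1.55-fold, and Pabpc4 rose 1.65-fold.

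In the decay machinery downstream genes were called in both directions, as over all genes tested, where 11.9% rose and 7.93% fell. Of 16 decapping and 5′ decay genes 2 rose (Patl1 1.79-fold and Lsm6 1.45-fold), 1 fell (Dcp1b, 1.51-fold lower) and 13 did not pass. Of 16 deadenylation genes 2 rose (Cnot8 1.43-fold and Tob2 1.32-fold), 2 fell (Cnot1, and Pan3 1.41-fold lower) and 12 did not pass. Cnot1, the scaffold of the deadenylase complex, was 2.12-fold lower, with values of 52964 (SKO 1), 94242 (SKO 2), 74049.9 (SKO 3) and 49539 (SKO 4) against 87849.7, 103832, 175948 and 232349.8 in CTL 1 to 4. SKO 2 lay above CTL 1, and the log2 fold change was -0.41 within the low-18S set (adjusted p = 0.181) and -2.02 within the higher. Of 14 genes of the RNA exosome and the Ski complex 2 rose (Exosc8 1.68-fold and Exosc7 1.52-fold), 2 fell (Dis3l 1.74-fold and Skiv2l 1.61-fold lower) and 10 did not pass. Among 8 kinases of the SMG1 family and their assembly factors, Mtor fell 1.77-fold, Telo2 rose 1.54-fold and 6 did not pass.

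**Figure D4:**
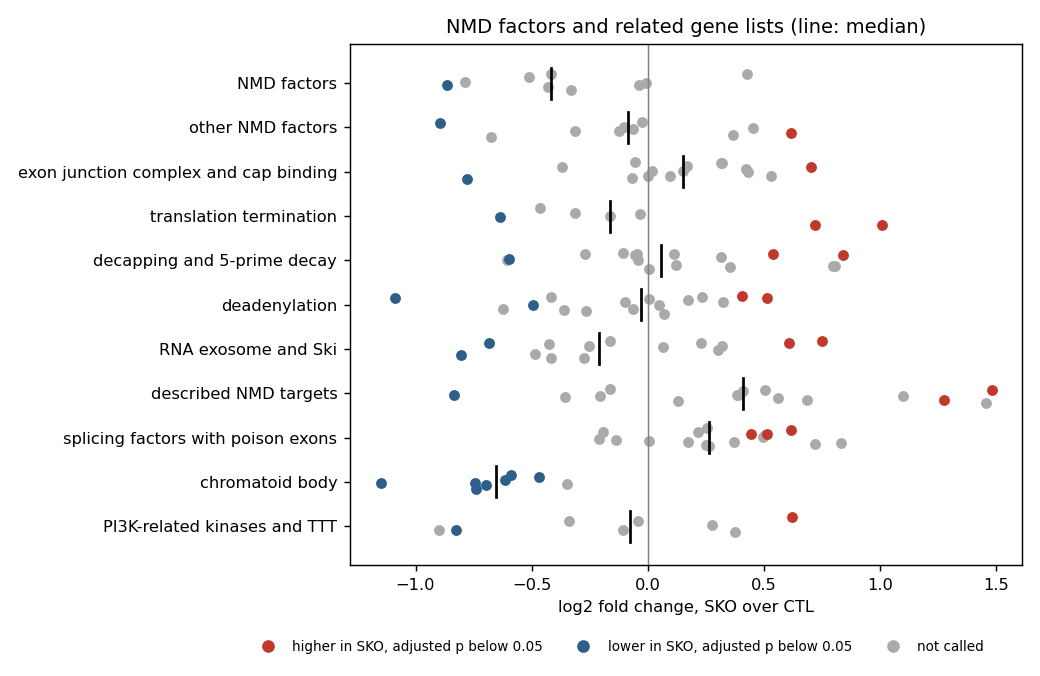
Log2 fold change (SKO over CTL) of each tested gene in the NMD factor list and 10 related lists, with called genes in red (higher in SKO) and blue (lower in SKO) and a line at each list's median. The chromatoid body list lies to the left (median -0.65), and the lists of NMD targets (0.41) and of splicing factors with poison exons (0.26) have their medians to the right.

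Described targets of NMD had a median log2 fold change of 0.41 over 15 tested genes, of which 2 rose, 1 fell and 12 did not pass. Their median was 0.23 in the low-18S set, 0.28 with the 18S set as covariate and 0.67 without CTL 1 and CTL 2. In the high-18S set it was 0.05 over the 13 tested there. Gadd45a and Gadd45b, stress response genes, rose 2.79-fold and 2.42-fold (limma adjusted p = 0.0238 and 0.0478). Gadd45a had 404, 321, 461 and 277 in SKO 1 to 4 against 208, 157, 59.8 and 124 in CTL 1 to 4, and 19.1% of its exon bases overlap a gene on the opposite strand. Values per gene do not measure the rate of decay. Arc, whose message carries junctions after its stop codon, fell 1.78-fold (limma adjusted p = 0.0151). Atf4, a stress transcription factor, had means of 4434 in SKO and 2929.8 in CTL and did not pass (adjusted p = 0.195), and Gas5, a host RNA of small nucleolar RNAs, had means of 1569.6 in SKO and 1228 in CTL (adjusted p = 0.244); both were named after their values were seen. Of 17 splicing factors with poison exons, which shift their own message into the pathway, 3 rose, 0 fell and 14 did not pass: Srsf1 (1.53-fold), Hnrnpdl (1.43-fold) and Tia1 (1.36-fold). With 1 library left out, 0 to 4 genes rose in each of these 2 lists. Values per gene cannot separate the isoforms that hold the poison exon.

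Of 8 genes of the chromatoid body 7 fell, 0 rose and Piwil2 did not pass, with a median log2 fold change of -0.65. The count of fallen genes was 3 without CTL 3, 3 without SKO 1, 4 without SKO 2, 0 without SKO 3 and 2 with library totals, while the median stayed between -0.36 and -0.87 in the alternatives run. Tdrd6, whose product builds the chromatoid body, had 76013, 88631, 83487 and 87614 in SKO 1 to 4 against 133474, 140962, 260130.2 and 244532 in CTL 1 to 4. The groups did not overlap, and CTL 3 and CTL 4 stood above CTL 1 and CTL 2 as they did for Smg5. Tdrd6 was 2.22-fold lower (limma adjusted p = 0.0159), and Piwil1 1.67-fold and Tdrd1 1.67-fold lower.

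Markers of the cell types of the testis moved between the groups beside these results. Sertoli markers rose in 13 of 15 genes (7 without CTL 3, 8 without SKO 2, 0 without SKO 3), with sums of 149580 to 289420 in SKO libraries against 65997 to 144930 in CTL libraries. Of 9 spermatogonia markers 4 rose and 0 fell, and 0 to 6 rose with 1 library left out. Of 13 spermatocyte markers 3 fell and 0 rose, but 7 fell in the low-18S set, 6 with the 18S set as covariate and 0 without SKO 3. Piwil1, 1 of these 3, is also counted among the fallen genes of the chromatoid body. Of 10 round spermatid markers 2 fell and 0 rose. In the low-18S set and with the 18S set as covariate 5 fell, and with library weights 10 fell (median log2 fold change -0.92). With CTL 3, CTL 4, SKO 1, SKO 2 or SKO 3 left out, 0 fell. Over all genes tested 2281 of 17003 fell in the low-18S set, 2210 of 17066 with the 18S set as covariate and 4693 of 17066 with library weights. Elongating spermatid markers had sums of 153270 to 587230 in SKO and 80218 to 693430 in CTL libraries, with 0 of 10 called by limma and 0 of 10 at an unadjusted p below 0.05. Their median log2 fold change of -0.13 was -1.24 in the low-18S set and 1.13 without CTL 1 and CTL 2, and 10 of 10 fell with library weights (median -1.38). Their part in the values of the NMD factors was not tested, and in whole testis fewer cells of a type and less RNA per cell cannot be told apart.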

How the data were processed

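Poly(A) selection is not stated in the sources used here; libraries were made from total RNA with a kit that does not mark strand, per the labels' protocols. The submitters' processing notes name CASAVA, fastp, HISAT2 2.0.5, featureCounts 1.5.0-p3 and the build mm10, with no role or order. The authors deposited 1 value per gene and library, here treated as a score: whole numbers that are read counts multiplied by a library factor and rounded. In the 6 libraries with a factor above 1, 99.4% to 100.0% of low values fell on the steps of such a factor, against 43.1% to 68.0% by chance. The factor, and so the depth, is less certain for CTL 1 and CTL 2. Column totals were 94.2 to 103.1 M, and no column belonged to another sample.

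Normalised values are deposited values over TMM factors, computed with trims of 30% and 5%. Genes with at least 25 in at least 4 libraries entered limma 3.58.1 (R 4.3.3, with a mean trend) on log2(value + 5), without a replicate term, two-sided, with Benjamini-Hochberg adjustment over 17066 genes and a threshold of 0.05. Fold changes are SKO over CTL on that scale, which understates changes of low genes. The ratio of Upf3b to Upf3a was tested by exact permutation over 70 assignments. The fit was run on simulated data with a common dispersion for all genes. These data held no 18S split, length trend or unequal depth, so the run does not bear on those features. Alternatives covered scaling, added constant, filter, 18S, length and GC, library weights, a replicate block and left-out libraries. No 2 libraries were duplicates (lowest chi-square per gene 47.6). Exon lengths and overlaps came from GENCODE on GRCm38.

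The 9 members and all lists were chosen with earlier results of these data known. Genes named are the members, N6amt1, Etf1, Tdrd6, in each list up to 3 called genes a direction with the largest change, and the 3 genes most like Upf1, Upf3a and Upf3b. One gene of a list is not reported here, and the counts leave it out.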

Additional observations from a re-analysis of the deposited data

Results flagged for a closer look

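In groups of 4 libraries, a library was singled out where its gap to the nearest other, divided by the range of the group, passed Dixon's 95% critical value. This held in 6 of 100 groups, and chance alone flags about 1 group in 20. Upf3b stood at 2217 in SKO 4, against 1481 to 1546 in the other SKO libraries. Alpk1, one of the genes most like Upf3b, stood at 1392 in SKO 4, against 929.5 to 990.4 in the other SKO libraries. Nbas stood at 11348 and Tdrd1 at 19234 in SKO 1, each below the other SKO libraries. Telo2 stood at 1416 in SKO 4, against 1461 to 1464 in the other SKO libraries, a gap that is small beside its level. Zmym6 stood at 3299 in CTL 1, above the other CTL libraries. The causes of these values were not tested.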

How the results depend on the processing

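The count of genes called (3393) was 5341 with library totals, 10011 with library weights, 5480 in the low-18S set, 312 in the high-18S set (1 SKO library against 2) and 0 to 3982 with 1 library left out (0 without SKO 3, 1237 without CTL 3, 1283 without SKO 1, 1328 without SKO 2). The count of NMD factors called (1) was 2 with library totals, with median-ratio factors, with a filter at 200 and with the length and GC trend removed. It was 3 with the 18S set as covariate (5010 of all genes called) and in the low-18S set (5480), and 4 with library weights (10011). It was 5 without CTL 1 and CTL 2 (4124), and 0 to 3 with 1 library left out. The log2 ratio of Upf3b to Upf3a (0.76) kept its direction in the 16 alternatives run for it. It was 0.85 with the 18S set as covariate (exact p = 0.0667), 0.78 in the low-18S set (exact p = 0.2) and 0.97 in the high-18S set. It was 0.61 without CTL 1 and CTL 2 (exact p = 0.133) and 0.64 to 0.87 with 1 library left out (exact p = 0.0571). Fewer assignments are possible in these settings, and each exact p was the lowest that they allow. None of these settings could reach a p below 0.05, so they cannot show whether the call holds. Upf1 (-0.01) turned to 0.28 with library totals, 0.037 with upper quartile factors, 0.040 with the 18S covariate, 0.080 in the low-18S set and 0.087 with library weights, and ran from -0.13 to 0.04 with 1 library left out. Smg8 (-0.04) turned to 0.25, 0.0051, 0.0077, 0.15 and 0.18 under the same settings in the same order, and ran from -0.16 to 0.011. Relative to the median gene under library totals (0.33), Upf1 stood at -0.05, Smg8 at -0.08 and Smg5 at -0.90. The cause was not tested. Same-numbered libraries deviated together with correlations of 0.673, 0.0119, 0.082 and 0.231. Each SKO library was closer to another CTL library, SKO 1 to CTL 2 (0.706), SKO 2 and SKO 3 to CTL 4 (0.194 and 0.35) and SKO 4 to CTL 3 (0.333). The deviations also hold the 18S split and the trend with length, so these values show no pairing by number but cannot exclude it. With a replicate block 3864 genes and 3 NMD factors were called. The Upf3 log2 ratio of 0.76 then had an exact p = 0.125, the lowest that the 16 assignments of this setting allow.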

Other observations

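Leydig and macrophage markers are not described above. Of 9 Leydig genes 2 rose and 0 fell, with sums of 44235 to 81369 in SKO libraries against 49089 to 64880 in CTL libraries. Of 9 macrophage genes 2 rose and 0 fell, with sums of 11918 to 19185 in SKO libraries against 10253 to 13029 in CTL libraries.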
